A study of Mus musculus with 12 samples.

Results

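RNA of the catalytic and PCGF subunits of Polycomb repressive complex 1 (PRC1) was examined in mouse embryonic stem cells (ESCs) with and without Cdk8. The 9 genes were taken by name from the deposited tables of 25759 genes. They were Ring1, Rnf2, Pcgf1, Pcgf2, Pcgf3, Pcgf5, Pcgf6, Bmi1 and Kdm2b, and each occurred once in all 12 tables. Polyadenylated RNA was sequenced from HATX3 ESCs, a now diploid line of haploid origin in which doxycycline switches on Xist from its own locus. All 4 groups carried this inducible Xist system, and each group held 3 libraries. The wild-type (WT) cells were the polyclonal parental line, numbered 1, 2 and 3. The mutant cells, labelled Cdk8-/- and called ΔCdk8 here, were clones 8, 11 and 15, each grown from 1 cell with a small deletion around the start codon in exon 1. Each number or clone was sequenced in uninduced conditions (NT) and after 48 h of Xist expression (Dox). The labels do not say whether WT libraries came from separate cultures, so the p-values measure the spread between these libraries, which may in part be technical.

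PRC1 is a ubiquitin ligase for histone H2A and keeps developmental genes silent in ESCs. Its catalytic core pairs a RING subunit, Ring1 or Rnf2 (also called Ring1b), with 1 of 6 PCGF subunits, and the PCGF subunit decides which further proteins join. Pcgf2 and Bmi1 (Pcgf4) can form the canonical complexes with Cbx and Phc proteins, which bind the methyl mark laid by PRC2. Pcgf1 joins Kdm2b, a demethylase whose zinc finger binds unmethylated CG dinucleotides, together with Bcor or Bcorl1. Pcgf3 and Pcgf5 serve in the complexes that Xist RNA brings to the X chromosome through Hnrnpk, and Pcgf6 joins Mga, Max, E2f6 and L3mbtl2.

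The members lie on 7 autosomes and none is X-linked. In GRCm38 coordinates the RING genes are Rnf2 (ENSMUSG00000026484, chr1:151458004-151500955, reverse strand) and Ring1 (ENSMUSG00000024325, chr17:34020792-34024680, reverse strand). The canonical PCGF genes are Pcgf2 (ENSMUSG00000018537, chr11:97688823-97700497, reverse strand) and Bmi1 (ENSMUSG00000026739, chr2:18677018-18686629, forward strand). The variant PCGF genes are Pcgf1 (ENSMUSG00000069678, chr6:83077869-83080855, forward strand), Pcgf3 (ENSMUSG00000033623, chr5:108461232-108506976, forward strand), Pcgf5 (ENSMUSG00000024805, chr19:36348309-36460970, forward strand) and Pcgf6 (ENSMUSG00000025050, chr19:47033619-47050845, reverse strand). Kdm2b (ENSMUSG00000029475) occupies chr5:122870665-122989823 on the reverse strand. The 3′ part of Kdm2b overlaps Rnf34 and that of Rnf2 overlaps Trmt1l, both on the opposite strand. The strand setting of the counting is not given in the sources used here, so reads in these overlaps may be shared. Between 98.4% and 100% of the reads of each member mapped to 1 place.

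Promoter sequence from RefSeq (GRCm38.p6) was matched by symbol for 8 of the 9 members, Pcgf1 being the other one. The 250 bases before the annotated start are shown for Pcgf5, Kdm2b and Pcgf2, of which the first 2 had the largest fitted differences between genotypes and the third has the window poorest in CG, and for Bmi1, which differed most on induction of WT cells. Capitals mark CG dinucleotides, the letters that the Kdm2b zinc finger reads.
Pcgf5 (chr19:36348079-36348328, forward strand): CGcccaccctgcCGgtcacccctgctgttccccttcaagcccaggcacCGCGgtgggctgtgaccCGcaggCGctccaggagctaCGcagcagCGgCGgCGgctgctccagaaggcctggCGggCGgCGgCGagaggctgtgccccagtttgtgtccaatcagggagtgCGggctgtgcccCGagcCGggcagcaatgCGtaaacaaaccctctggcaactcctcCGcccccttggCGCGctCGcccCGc
Kdm2b (chr5:122989100-122989349, reverse strand): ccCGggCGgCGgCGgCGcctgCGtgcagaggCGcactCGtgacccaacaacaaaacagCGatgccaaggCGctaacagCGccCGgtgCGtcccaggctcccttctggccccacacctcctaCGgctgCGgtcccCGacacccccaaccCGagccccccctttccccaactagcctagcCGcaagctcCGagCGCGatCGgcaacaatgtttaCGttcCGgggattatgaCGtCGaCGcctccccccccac
Pcgf2 (chr11:97699649-97699898, reverse strand): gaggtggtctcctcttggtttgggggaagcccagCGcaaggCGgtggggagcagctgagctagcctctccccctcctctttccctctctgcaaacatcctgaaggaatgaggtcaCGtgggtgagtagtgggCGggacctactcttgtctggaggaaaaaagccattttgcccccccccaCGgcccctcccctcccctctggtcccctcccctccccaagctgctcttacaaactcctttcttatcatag
Bmi1 (chr2:18676768-18677017, forward strand): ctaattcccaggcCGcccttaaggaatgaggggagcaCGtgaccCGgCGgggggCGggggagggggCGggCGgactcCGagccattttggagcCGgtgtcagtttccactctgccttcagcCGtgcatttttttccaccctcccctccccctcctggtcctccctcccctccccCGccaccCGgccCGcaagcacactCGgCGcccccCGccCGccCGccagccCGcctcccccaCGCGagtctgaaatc
These windows held 23 CG in Pcgf5, 27 in Kdm2b, 5 in Pcgf2 and 21 in Bmi1, beside a median of 6 over 32851 promoter windows of the same length. At least 23 CG were found in 13.3% of all windows, at least 27 in 8.56%, at least 5 in 55.6% and at least 21 in 16.3%. The RefSeq starts of Pcgf5, Kdm2b and Pcgf2 lie inside the deposited gene regions, and the Pcgf2 window held the fewest CG among the 8 members. The letters CACGTG, which read the same on both strands, contain a CG and form the core site of the Mga and Max family, were present in the Pcgf2 and Bmi1 windows, in 2 of the 8 members and in 6.02% of all windows.

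The libraries held 22170087 to 60798578 reads on genes, of which each member received 134 to 11971. All 10 genes listed as naive pluripotency markers reached at least 1 TPM in every library, including Nanog and also Pou5f1 and Sox2, which are not particular to the naive state. TPM (transcripts per 1e6 transcripts) is scaled for transcript length and library size, and was used for levels. The gene targeted in the mutant clones, Cdk8, had 64.2, 69.4 and 74.2 TPM in uninduced WT 1, 2 and 3, and 34.4, 56.8 and 85.3 TPM in uninduced clones 8, 11 and 15. After induction it had 51.6, 51.5 and 53.1 TPM in WT cells and 33.4, 57.8 and 84.9 TPM in the clones. Clone 15 was thus above every WT library. These totals cover all exons and not only the deleted stretch, so they do not check the mutation, and reads in Cdk8 introns made up 70.4% to 96.4% of its gene reads. In such bulk RNA, fewer cells of a type and less RNA per cell cannot be told apart.

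Rnf2 supplied most of the RING RNA. In uninduced WT 1, 2 and 3 it had 73.5, 55.1 and 52.2 TPM, and in uninduced clones 8, 11 and 15 it had 62.9, 88.7 and 79.6 TPM. After induction it had 80.6, 54.9 and 54.5 TPM in WT cells and 61.4, 79.6 and 92.9 TPM in ΔCdk8 cells. WT 1 lay among the clones in both states, and the groups overlapped. Ring1, the paralogous ligase subunit, had 6.69, 8.93 and 9.55 TPM in uninduced WT cells and 8.18, 9.32 and 5.85 TPM in uninduced clones 8, 11 and 15. After induction Ring1 stood at 6.59, 15.7 and 12.3 TPM in WT 1, 2 and 3, and at 11.8, 12.4 and 6.13 TPM in the clones. In both states the lowest Ring1 value of each genotype was that of WT 1 or clone 15, and WT 1 was the WT number with the most Rnf2.

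As a share of summed Rnf2 and Ring1 TPM, Rnf2 made up 77.8% to 93.8% over the 12 libraries. Its uninduced mean was 87.4% ± 3.75 (SD, n = 3) in WT and 90.7% ± 2.33 (SD, n = 3) in ΔCdk8 cells, with an exact two-sided permutation p of 0.3. After induction the means were 83.9% ± 7.60 (SD, n = 3) and 88.1% ± 5.17 (SD, n = 3), with an exact permutation p of 0.4. On leaving out 1 library the genotype difference ranged from 1.86 to 5.41 percentage points in uninduced cells and from 1.03 to 8.35 in induced cells. With 3 libraries against 3 the permutation test cannot give a p below 0.1, and both p-values were 0.4 after Benjamini-Hochberg adjustment over the 2 states.

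Among the PCGF genes, Pcgf6 was the most abundant in 11 of 12 libraries and Pcgf2 usually followed. Pcgf6 had 111, 91.1 and 91.9 TPM in uninduced WT 1, 2 and 3, and 78.9, 88.1 and 98.8 TPM in uninduced clones 8, 11 and 15. Pcgf2 had 36.5, 55.4 and 48.7 TPM in the same WT libraries and 39.3, 49.4 and 41.3 TPM in the clones. WT 1 was the lowest WT library for Pcgf2 and the highest for Pcgf6. Pcgf3 had 21.2, 17.4 and 18.3 TPM in uninduced WT cells and 19.99, 17.0 and 27.8 TPM in the clones. In uninduced libraries the remaining PCGF genes, Pcgf1, Pcgf5 and Bmi1, were lower, while after induction Pcgf1 exceeded Pcgf3 in clones 8 and 15.

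In uninduced WT cells the order of mean levels was Pcgf6, Kdm2b, Rnf2, Pcgf2, Pcgf3, Pcgf1, Ring1, Pcgf5 and Bmi1. Their mean TPM were 98.1 ± 11.4, 78.8 ± 2.09, 60.3 ± 11.5, 46.9 ± 9.63, 18.9 ± 1.997, 12.7 ± 3.95, 8.39 ± 1.504, 4.64 ± 3.76 and 3.44 ± 1.118 (SD, n = 3 each). The ranges of Rnf2 and Pcgf2, of Ring1 and Pcgf5, and of Pcgf5 and Bmi1 overlapped, and those of the other neighbours in this order did not. In uninduced ΔCdk8 cells only the neighbours Pcgf2 and Pcgf3, and Ring1 and Bmi1, had ranges that did not overlap.

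**Figure D1:**
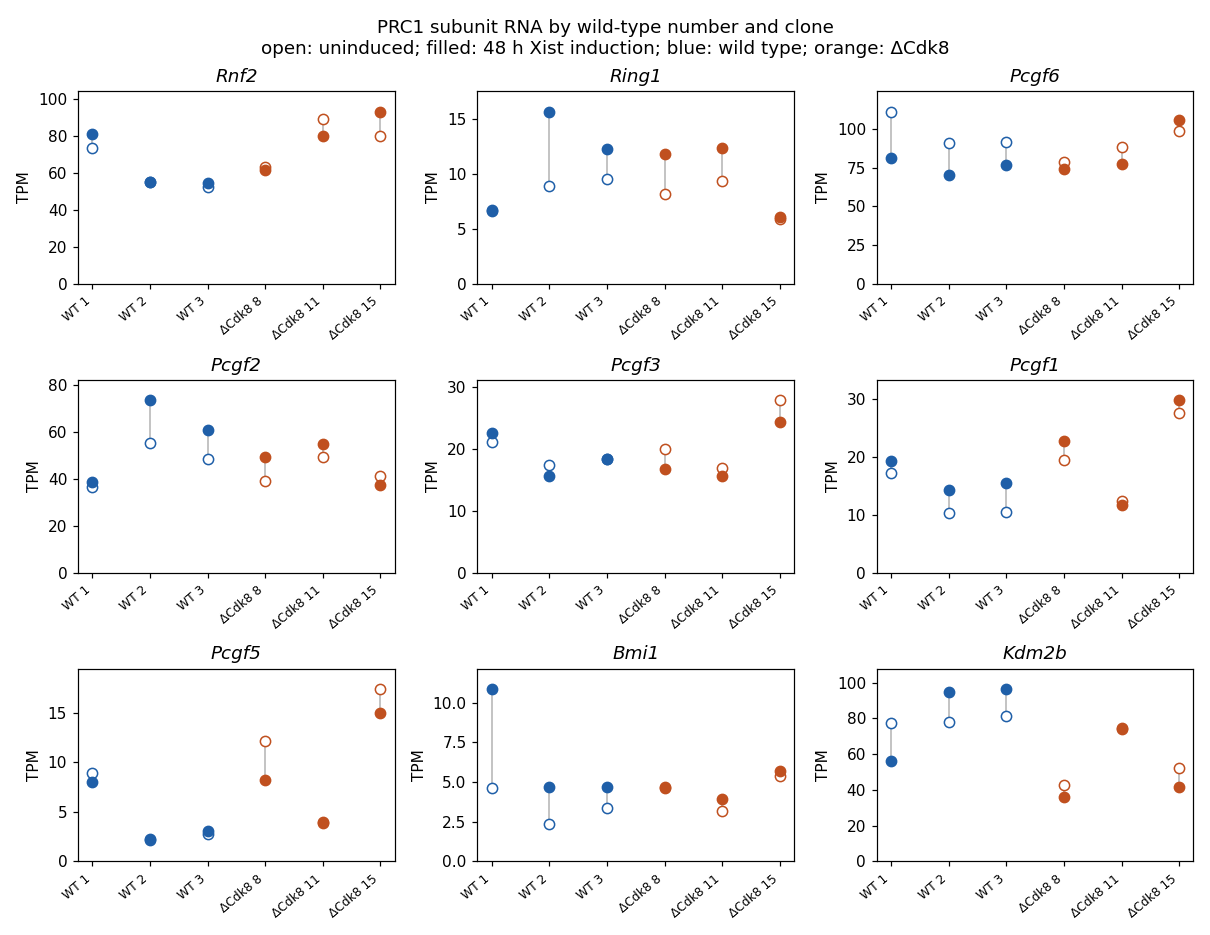
TPM (linear axes from 0) of the 9 genes in each WT number (blue) and ΔCdk8 clone (orange), uninduced (open points) and after 48 h of Xist induction (filled points), with a grey line joining both states. For Pcgf5 WT 1 and clones 8 and 15 stand above WT 2, WT 3 and clone 11 in both states, from 8.03 TPM against at most 3.95 TPM.

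Pcgf5, a subunit of the complexes used by Xist, varied most between WT numbers and between clones. In uninduced WT 1, 2 and 3 it had 8.96, 2.16 and 2.79 TPM, and in uninduced clones 8, 11 and 15 it had 12.1, 3.95 and 17.4 TPM. After induction it had 8.03, 2.23 and 3.07 TPM in WT cells and 8.24, 3.92 and 14.97 TPM in the clones. WT 1 was above clone 11 in both states, so that the groups overlapped. Pcgf1, the partner of Kdm2b, was split in nearly the same way. It had 17.3, 10.3 and 10.6 TPM in uninduced WT 1, 2 and 3, and 19.5, 12.3 and 27.6 TPM in uninduced clones 8, 11 and 15. After induction Pcgf1 had 19.3, 14.4 and 15.5 TPM in WT cells and 22.8, 11.7 and 29.8 TPM in the clones.

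Kdm2b, the CG-binding demethylase, was lower in clones 8 and 15 than in clone 11. It had 77.3, 78.0 and 81.2 TPM in uninduced WT 1, 2 and 3, and 42.7, 74.6 and 52.3 TPM in uninduced clones 8, 11 and 15. After induction it had 56.1, 94.6 and 96.3 TPM in WT cells and 36.0, 74.1 and 41.7 TPM in the clones. All 3 clones were below all WT libraries in uninduced conditions, with clone 11 close to them, and after induction WT 1 was below clone 11. Among the members Kdm2b was the only one whose uninduced groups did not overlap, and 6.79% of all tested genes were lower in every mutant than in every WT library. No member was higher in every mutant library, beside 16.3% of all genes. After induction none of the 9 members separated the groups, beside 28.7% of all tested genes.

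Over the 12 libraries, the genes most like Pcgf5 by Pearson correlation of log2(TPM + 1), among 9597 genes whose mean reached 5 TPM, included Kif16b (r = 0.987) and Cfap97 (r = 0.986). The genes most like Kdm2b were Zfp12 (r = 0.967), Epha2 (r = 0.964) and Ddx39 (r = 0.958), and those most like Pcgf1 were Tpx2 (r = 0.980), Sbf2 (r = 0.978) and Anxa5 (r = 0.977). These are descriptions, since the 12 libraries come from 6 numbers or clones and share their differences in depth and base composition.

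The summed TPM of markers of another lineage moved with Pcgf5, though not every single marker did. The summed TPM of 8 trophoblast markers was 82.3 and 75.9 in uninduced and induced WT 1, and from 78.1 to 109 in clones 8 and 15. It was 12.8 to 19.1 in WT 2 and WT 3, and 35.2 and 40.03 in clone 11. Of these markers 6 or 7 reached 1 TPM in WT 1 and clones 8 and 15, 1 or 2 in WT 2 and WT 3, and 4 or 5 in clone 11. Hand1 had 35.5 TPM in uninduced WT 1 against 0.286 and 0.598 in WT 2 and WT 3. Krt7 had 8.33 TPM against 0.282 and 0.696, Elf5 1.24 TPM against 0 and 0.0157, and Cdx2 0.819 TPM against 0.0630 and 0.226 in the same libraries. Among the clones, however, Cdx2 was highest in clone 11 in both states, at 0.824 TPM uninduced against 0.551 and 0.658 TPM in clones 8 and 15. Eomes had 3.64 TPM in uninduced WT 1, below the 3.84 TPM of uninduced clone 11. Tpbpa, a marker of the spongiotrophoblast, was listed at 0 in 10 of the 12 libraries. The GC content of transcripts moved only in part with this split. The median log2 deviation of the 20% of genes richest in GC, minus that of the poorest 20%, was −0.31 and −0.29 in uninduced and induced WT 1 and −0.36 and −0.56 in clone 15, but 0.10 and 0.33 in clone 8, beside 0.01 to 0.39 in WT 2, WT 3 and clone 11. The part of these differences in the values of the members was not tested.

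**Figure D2:**
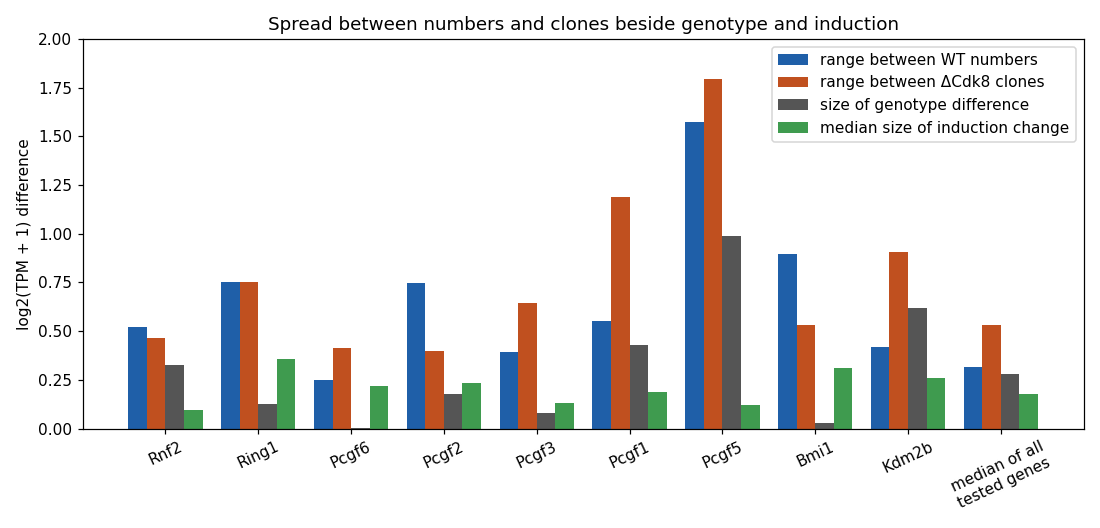
Differences on the log2(TPM + 1) scale for each gene and the median of 15137 tested genes. Bars give the range over WT numbers, the range over clones, the size of the genotype difference and the median size of the induction change, and for Pcgf5 the ranges, 1.57 and 1.80, exceed the genotype difference of 0.99 and the induction change of 0.12.

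The spread between WT numbers and between clones was set beside the other differences on the log2(TPM + 1) scale, with the states of each number or clone averaged. For Pcgf5 the range was 1.57 between WT numbers and 1.80 between clones, against a mean genotype difference of 0.99. For Kdm2b the ranges were 0.42 and 0.91 and the genotype difference was 0.62. The range between clones was wider than the genotype difference for 9 of 9 members, as it was for 75.9% of all genes tested. The range between WT numbers was wider than the median induction change for 9 of 9 members and for 71.7% of all genes. Over the members, the median range was 0.55 between WT numbers and 0.64 between clones, and over all genes it was 0.31 and 0.53. Since a range of 3 values tends to exceed a difference of means, these are descriptions only.

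The first question was whether PRC1 subunit RNA differed between ΔCdk8 and WT cells before and after induction. Every mutant library came from a clone grown from 1 cell and every WT library from the polyclonal parent. Loss of Cdk8 and cloning therefore cannot be told apart. A gene was called where edgeR's quasi-likelihood test over all genes, run on reads per gene, gave an adjusted p below 0.01 together with more than a 2-fold change. In uninduced cells 0 of 9 members were called, and 0 of 14646 genes, or 0%, passed. At an unadjusted p under 0.05 the members gave 0 of 9 and all genes 20.4%. DESeq2 also called 0 members, beside 2.64% of all genes. The largest differences were those of Pcgf5, with a log2 fold change of 1.09 ± 0.63 (SE, edgeR adjusted p = 0.341), Kdm2b, with −0.60 ± 0.26 (SE, edgeR adjusted p = 0.248), and Pcgf1, with 0.43 ± 0.31 (SE, edgeR adjusted p = 0.425). The other 6 members lay between −0.29 for Pcgf6 and 0.21 for Rnf2.

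These values depended on single libraries of both genotypes. The TPM of Pcgf5 in uninduced clones 8, 11 and 15 was 2.61, 0.852 and 3.75 times the WT mean, and that of Kdm2b was 0.542, 0.947 and 0.663 times the WT mean. Without clone 11 the Kdm2b log2 fold change was −0.99 ± 0.12 (SE, edgeR adjusted p = 0.0248), and without clone 8 it was −0.41 ± 0.25 (SE, edgeR adjusted p = 0.541). Without WT 1 the Pcgf5 log2 fold change was 1.98 ± 0.53 (SE, edgeR adjusted p = 0.0876), and without clone 15 it was 0.71 ± 0.69 (SE, edgeR adjusted p = 0.641). The Pcgf1 log2 fold change ranged from 0.22 to 0.64 on leaving out 1 library. None of these values met the call rule.

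In induced cells 0 of 9 members were called by edgeR and by DESeq2, beside 0% and 5.81% of 14143 genes. At an unadjusted p under 0.05 edgeR gave 0 of 9 members and 25.9% of all genes. Pcgf5 had a log2 fold change of 0.92 ± 0.55 (SE, edgeR adjusted p = 0.310), which was 0.48 without clone 15 and 1.61 without WT 1 (edgeR adjusted p = 0.0923). Kdm2b had one of −0.85 ± 0.38 (SE, edgeR adjusted p = 0.202). Without clone 11 the Kdm2b value was −1.34 ± 0.29 (SE, edgeR adjusted p = 0.0294), past the 2-fold mark but not past the adjusted p. Bmi1, the canonical PCGF subunit, had −0.69 ± 0.36 (SE, edgeR adjusted p = 0.251), with the opposite sign to its uninduced value of 0.18 ± 0.33 (SE). Without WT 1 the induced Bmi1 value was −0.24 ± 0.29 (SE, edgeR adjusted p = 0.595). The other 6 members lay between −0.36 for Pcgf2 and 0.23 for Pcgf1.

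**Figure D3:**
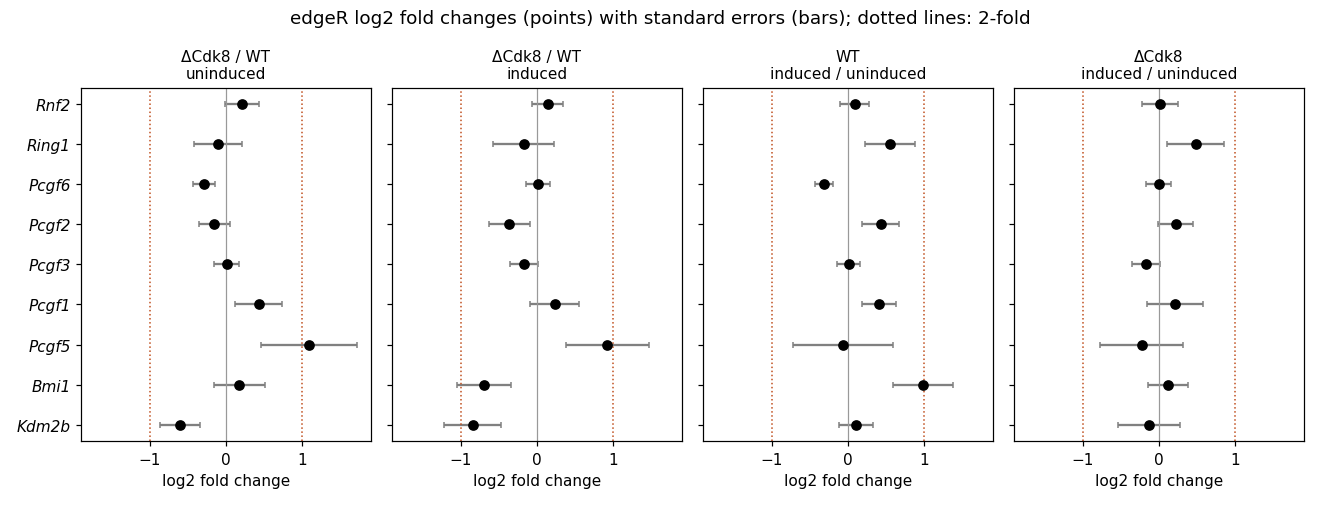
Log2 fold changes from edgeR (points) with standard errors (bars) for the 9 genes in 4 comparisons, with dotted lines at a 2-fold change. Only Pcgf5 in uninduced cells reached 2-fold, at 1.09 ± 0.63, and Bmi1 on induction of WT cells came next at 0.99 ± 0.39.

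The second question was whether 48 h of Xist expression altered the subunits. In WT cells 0 of 9 members were called, by edgeR as by DESeq2, beside 1.16% and 4.73% of 14006 genes. At an unadjusted p under 0.05 edgeR gave 2 of 9 members, Bmi1 and Pcgf6, beside 21.2% of all genes, so that the share of members was near that of all genes. Bmi1 had 4.59, 2.36 and 3.37 TPM in uninduced WT 1, 2 and 3 and 10.8, 4.68 and 4.69 TPM after induction, which is 2.36, 1.98 and 1.39 times as much. Every induced WT library was above every uninduced one, if narrowly for WT 2 and WT 3, and 12.1% of all genes were higher in the same way. The log2 fold change of Bmi1 was 0.99 ± 0.39 (SE, edgeR adjusted p = 0.214), and 0.50 ± 0.32 (SE, edgeR adjusted p = 0.375) without induced WT 1. In clones 8, 11 and 15 the Bmi1 ratios were 0.982, 1.23 and 1.06, from 4.69, 3.17 and 5.37 TPM to 4.603, 3.91 and 5.71 TPM.

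Pcgf6, the variant subunit with the most RNA, had 111, 91.1 and 91.9 TPM before and 81.3, 70.2 and 77.0 TPM after induction of WT 1, 2 and 3. Every induced WT library was below every uninduced one, as for 14.2% of all genes. The log2 fold change was −0.31 ± 0.11 (SE, edgeR adjusted p = 0.176). In clones 8, 11 and 15 Pcgf6 went from 78.9, 88.1 and 98.8 TPM to 74.0, 77.6 and 106 TPM, and the states overlapped. In 3 of 3 WT numbers Pcgf1, Pcgf2 and Bmi1 were higher after induction, as were 28.1% of all genes, and Pcgf6 was lower, as were 29.4%. Pcgf2, the main canonical PCGF gene, had ratios of 1.07, 1.33 and 1.25 in WT cells and 1.26, 1.11 and 0.907 in the clones.

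**Figure D4:**
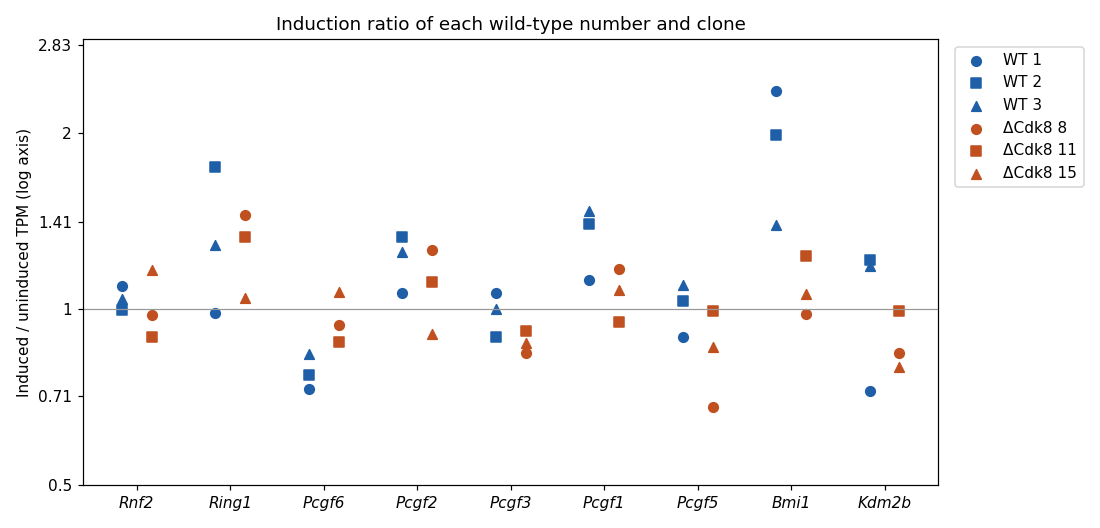
Ratio of induced to uninduced TPM (log axis) for each gene in WT numbers 1, 2 and 3 (blue) and ΔCdk8 clones 8, 11 and 15 (orange). Bmi1 reaches 2.36, 1.98 and 1.39 in WT cells against 0.982 to 1.23 in the clones, and Pcgf6 is below 1 in all 3 WT numbers.

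In ΔCdk8 cells 0 of 9 members were called on induction by edgeR or DESeq2, beside 0% and 0.243% of 14832 genes, and 0 of 9 had an unadjusted edgeR p under 0.05, beside 2.64% of all genes. The members' log2 fold changes ranged from −0.23 for Pcgf5 to 0.48 for Ring1. No member separated the uninduced from the induced clones, beside 5.25% of all genes. Ring1 was higher after induction in 3 of 3 clones, with ratios of 1.45, 1.33 and 1.05, as were 18.2% of all genes. Pcgf3, Pcgf5 and Kdm2b were lower in 3 of 3 clones, as were 25.3% of all genes, and the Pcgf5 ratios were 0.681, 0.993 and 0.861.

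Libraries of the same number deviated together, so induction was also fitted with a term for each WT number or clone, the replicate block. With the replicate block 0 members were called in WT cells, beside 3.95% of all genes, and 3 of 9 members had an adjusted p under 0.05, beside 23.0% of all genes. These were Bmi1, with a log2 fold change of 0.94 ± 0.19 (SE, edgeR adjusted p = 0.0205), Pcgf2, with 0.41 ± 0.08 (SE, edgeR adjusted p = 0.0213), and Pcgf6, with −0.31 ± 0.08 (SE, edgeR adjusted p = 0.0369). In ΔCdk8 cells with the block 0 members were called, beside 1.4% of all genes. Ring1 was the 1 member with an adjusted p under 0.05, at 0.47 ± 0.13 (SE, edgeR adjusted p = 0.0215), beside 11.8% of all genes. In each case the change was under 2-fold. With GC-bin offsets added to the block, which remove trends with the GC content of transcripts, 2 members had an adjusted p under 0.05 in WT cells, Bmi1 and Pcgf2, beside 23.3% of all genes, and 0 were called. In ΔCdk8 cells the same fit gave 3 members, Ring1, Pcgf3 and Kdm2b, beside 16.4% of all genes, and 0 were called.

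Whether the response to induction differed between genotypes was tested as an interaction. It called 0 of 9 members in edgeR and in DESeq2, beside 0% and 0.218% of 15137 genes, and 0 of 9 members had an unadjusted edgeR p under 0.05, beside 3.88% of all genes. Bmi1 had the largest interaction, −0.85 ± 0.48 on the log2 scale (SE, edgeR adjusted p = 1.00), and −0.40 without induced WT 1 or −1.13 without uninduced WT 1. With the replicate block it was −0.79 ± 0.23 (SE, edgeR adjusted p = 0.0738), and with the block and GC-bin offsets −0.88 ± 0.21 (SE, edgeR adjusted p = 0.0402), under 2-fold and beside 8.04% of all genes with an adjusted p under 0.05. With the block the interaction of Pcgf6 was 0.33 ± 0.11 (SE, edgeR adjusted p = 0.115). The block called 0 members, beside 0.998% of all genes. Without the block Pcgf6 had 0.33, and the other 7 members lay between −0.22 for Kdm2b and −0.05 for Ring1.

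The PCGF subunits exclude one another in a complex, so their make-up was expressed as each gene's share of summed PCGF TPM. Pcgf6 made up 38.87% to 55.7% of it over the 12 libraries, Pcgf2 17.2% to 40.7%, Pcgf3 8.62% to 12.7%, Pcgf1 5.76% to 13.7%, Pcgf5 1.21% to 7.96% and Bmi1 1.32% to 5.99%. The Pcgf6 share was 53.0% ± 2.44 (SD, n = 3) in uninduced WT and 47.0% ± 3.13 (SD, n = 3) in uninduced ΔCdk8 cells. These were the only PCGF shares whose groups did not overlap, and the exact two-sided permutation p was 0.1, the smallest this design allows, or 0.514 after adjustment over 6 genes and 2 states. After induction the Pcgf6 share was 42.2% ± 3.07 (SD, n = 3) in WT and 45.6% ± 3.26 (SD, n = 3) in ΔCdk8 cells, an order opposite to that before induction (exact permutation p = 0.3). Pcgf5 made up 2.43% ± 1.79 (SD, n = 3) of uninduced WT and 5.72% ± 3.03 (SD, n = 3) of uninduced ΔCdk8 PCGF RNA (exact permutation p = 0.2). WT 2 showed the most canonical make-up, with a Pcgf2 share of 40.7% after induction, against 17.2% in induced clone 15.

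**Figure D5:**
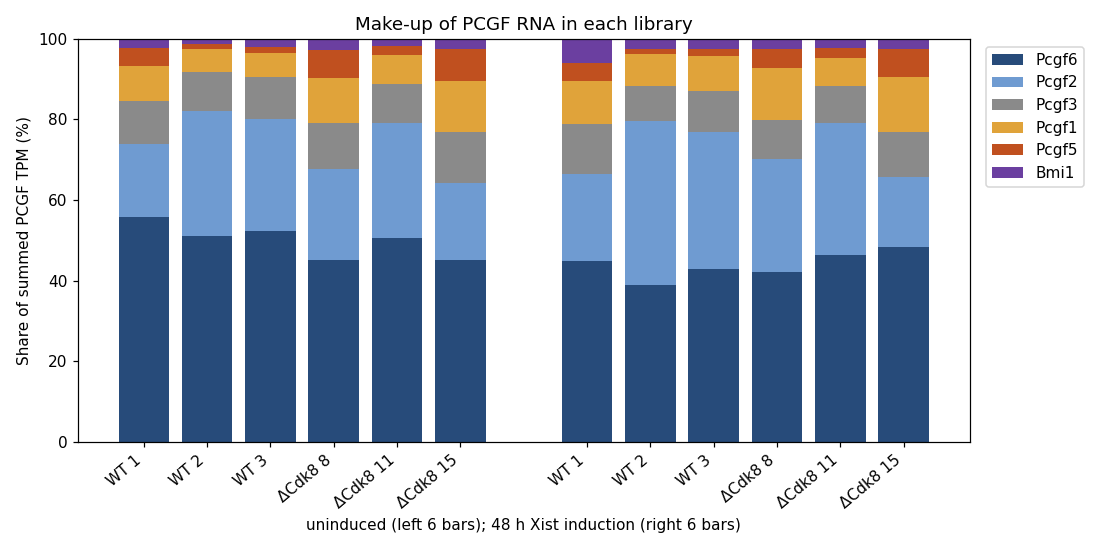
Share in percent of summed PCGF TPM of each PCGF gene, stacked from 0 to 100, in the 6 uninduced and the 6 induced libraries. Pcgf6 and Pcgf2 fill most of each bar, and the Pcgf6 share is 51.0% to 55.7% in uninduced WT and 45.2% to 50.7% in uninduced ΔCdk8 libraries.

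The proteins that join these subunits were followed as lists. Of 22 partners of variant PRC1, 0 were called in uninduced cells by edgeR, with 1 higher and 4 lower at an unadjusted p under 0.05, beside 20.4% of all genes in either direction, and DESeq2 called 0. Their median log2 fold change was −0.12, beside 0.03 for all genes. The largest values were those of Bcor, −1.13 ± 0.30 (SE, edgeR adjusted p = 0.154), its paralogue Bcorl1, 0.81 ± 0.26 (SE, edgeR adjusted p = 0.178), and Auts2, a component of Pcgf3 and Pcgf5 complexes, −0.66 ± 0.26 (SE, edgeR adjusted p = 0.221). Bcor, the bridge of the Pcgf1 complex, had 20.3, 33.8 and 33.2 TPM in uninduced WT cells and 11.4, 18.8 and 13.5 TPM in clones 8, 11 and 15. The groups did not overlap, with every clone lower, as for 6.79% of all tested genes.

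Of 11 canonical partners edgeR called 0 in uninduced cells, with 1 higher and 1 lower at an unadjusted p under 0.05 (20.4% of all genes), and a median of 0.05. Phc1, a Polyhomeotic subunit that polymerizes canonical PRC1, had 449, 523 and 547 TPM in uninduced WT cells and 226, 241 and 289.5 TPM in clones 8, 11 and 15. All clones were far below all WT libraries, and 6.79% of all tested genes were lower in every mutant than in every WT library. The log2 fold change of Phc1 was −1.18 ± 0.15 (SE, edgeR adjusted p = 0.101). DESeq2 called Phc1 at −1.20 (DESeq2 adjusted p = 7.93e-09) in uninduced cells and at −1.24 (DESeq2 adjusted p = 1.51e-07) in induced cells, where it also called Bcorl1 at 1.95. Among the 11 canonical partners DESeq2 called 1 lower in uninduced cells, and 1 higher and 1 lower in induced cells, beside 2.64% and 5.81% of all genes. Scml4 had 1.17 ± 0.55 (SE, edgeR adjusted p = 0.274) and Phc2, a second Polyhomeotic subunit, 0.67 ± 0.33 (SE, edgeR adjusted p = 0.280) in uninduced cells.

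The 3 listed genes on the X chromosome, Bcorl1, Scml2 and Bcor, were measured under induction. Bcorl1 had 1.55, 1.61 and 1.71 TPM in uninduced and 0.350, 0.345 and 0.488 TPM in induced WT cells, and 2.57, 2.78 and 4.22 against 1.36, 1.88 and 1.60 TPM in the clones. Its log2 fold change on induction was −2.05 ± 0.27 (SE, edgeR adjusted p = 0.0107) in WT and −0.90 ± 0.29 (SE, edgeR adjusted p = 1.00) in ΔCdk8 cells. With the replicate block Bcorl1 was called in WT cells, at −2.07 (edgeR adjusted p = 0.00407), and the interaction was 1.18 ± 0.28 (SE, edgeR adjusted p = 0.0398), past the 2-fold mark but not past an adjusted p of 0.01. DESeq2 called it in WT cells at −2.06. Scml2, a canonical partner, had −2.48 ± 0.51 (SE, edgeR adjusted p = 0.0436) in WT and −1.36 ± 0.35 (SE, edgeR adjusted p = 1.00) in ΔCdk8 cells. With the block Scml2 was called in ΔCdk8 cells, at −1.38 (edgeR adjusted p = 0.00234), and DESeq2 called it in WT cells at −2.51. Bcor had −0.80 ± 0.29 (SE, edgeR adjusted p = 0.180) in WT and −0.65 ± 0.37 (SE, edgeR adjusted p = 1.00) in ΔCdk8 cells.

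Of 6 genes whose products remove or help to remove ubiquitin from H2A, edgeR called 0 in uninduced cells, with 3 lower at an unadjusted p under 0.05, beside 1244 of 14646 genes lower and 20.4% in either direction. These were Asxl3, at −1.47 ± 0.61 (SE, edgeR adjusted p = 0.238), Asxl1, at −0.49 ± 0.18 (SE, edgeR adjusted p = 0.216), and Usp16, at −0.44 ± 0.17 (SE, edgeR adjusted p = 0.220). Asxl3 had little RNA, at 0.358, 1.57 and 1.33 TPM in uninduced WT cells and 0.167, 0.581 and 0.429 TPM in the clones. Bap1 on the same list went the other way, with 120 to 133 TPM in uninduced clones against 82.1 to 97.2 TPM in WT cells. Of all tested genes, 16.3% were likewise higher in every mutant library. Asxl3 was called by DESeq2 in induced cells, at −1.96 (DESeq2 adjusted p = 0.00490). Of 10 proteins that work with Xist RNA edgeR called 0 in uninduced cells, with 1 lower at an unadjusted p under 0.05 (20.4% of all genes), and the largest values were those of Spen (−0.46), Hnrnpu (−0.45) and Wtap (−0.32). DESeq2 called 0 of these 10 in any comparison.

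Of 15 developmental regulators known as PRC1 targets, 7 passed the filter on low counts in uninduced cells and edgeR called 0 of them, with 1 at an unadjusted p under 0.05 (20.4% of all genes). DESeq2 called 0 in that comparison. Gata4, an endoderm factor, had 1.13, 0.164 and 0.536 TPM in uninduced WT cells and 1.82, 2.37 and 5.42 TPM in clones 8, 11 and 15. Its log2 fold change was 2.22 ± 0.67 (SE, edgeR adjusted p = 0.171). Wnt6 had 1.43 and Pax6 −1.21 in the same comparison. On induction of WT cells DESeq2 called Wnt6 at 2.54 and Nkx2-9 at 2.44, and edgeR called neither, with TPM from 0.191, 0.677 and 1.18 to 3.58, 3.50 and 4.10 for Nkx2-9.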

How the data were processed

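RNAseq of 12 mouse ESC libraries in 4 groups of 3 was used. Per the methods of the study, the authors mapped untrimmed reads to Ensembl GRCm38 with CLC Genomics Workbench. Each library has 1 table. The deposited counts are unnormalized reads, for total or unique reads on genes, exons and introns, and the authors also deposited TPM. The deposited RPKM values and the fraction columns were not used here. Groups, numbers and clones came from the sample titles.

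Tests ran on total gene reads over all genes in R 4.3.3 with edgeR 4.0.16 (TMM, filterByExpr at 10 reads, the quasi-likelihood test and Benjamini-Hochberg adjustment), two-sided, and DESeq2 1.42.0 was an alternative. The standard error is the log2 fold change over the square root of F. Shares of TPM were compared by exact permutation tests with scipy 1.17.1. Libraries of the same number or clone deviated together from their group means (r = 0.581 to 0.696 in WT, where the titles give only a number, and 0.851 to 0.907 in ΔCdk8 cells, which share a clone), so the replicate block was fitted as well. GC-bin offsets were chosen after seeing the data.

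The members, the gene lists and the tests were chosen with earlier results of these data known. All 9 members were fitted in every comparison, and those with smaller differences are given by their range. From the lists of partners, erasers and targets the genes named are those called, the 3 with the largest uninduced change and, on induction, those on the X chromosome. Bap1 was named as well, after its values were seen. For the 3 members with the largest uninduced change, the 3 genes with the most similar profile are named. Of the genes these rules select, 2 are not reported here. Marker lists were summarized by sums and counts, and single markers were named after their values were seen. Xist was not analysed here.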

Additional observations from a re-analysis of the deposited data

Results flagged for a closer look

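The share of gene reads that fell on introns was not itself compared above, although the fits on total gene reads included intron reads. This share was higher in every uninduced ΔCdk8 library than in every uninduced WT library for 2 members. For Ring1 it was 15.4% ± 5.07 (SD, n = 3) in ΔCdk8 cells, from 10.1% to 20.3%, against 6.12% ± 2.69 (SD, n = 3) in WT cells, from 4.14% to 9.18%. For Pcgf2 it was 22.9% ± 4.23 (SD, n = 3), from 19.7% to 27.7%, against 16.7% ± 0.811 (SD, n = 3), from 15.8% to 17.4%. Of 9696 genes with at least 100 reads in each library, 16.3% were higher in the same way, so the share of members, 2 of 9, was near that of all genes. Over all genes, intron reads made up 4.77% to 7.59% of a library. In uninduced libraries they made up 4.77%, 5.18% and 5.54% in WT 1, 2 and 3, and 6.87%, 5.39% and 5.73% in clones 8, 11 and 15. After induction the groups overlapped for both genes, at 5.70% to 18.5% in WT and 12.96% to 28.2% in ΔCdk8 cells for Ring1. Ring1 rests on 178 to 723 gene reads per library. The part of RNA quality or library preparation in these shares was not tested.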

How the results depend on the processing

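All counts of called members stayed at 0 in the 5 comparisons under every alternative run: DESeq2, TMM over autosomal genes, no filter but 1 count, unique gene reads, total exon reads, no fold minimum with an adjusted p of 0.05, GC-bin offsets, leaving out each library and, where they apply, all 12 libraries in 1 fit and the replicate block. Each group held 3 libraries, and the least covered member, Bmi1, had 134 reads in its shallowest library. The pairing by replicate block left the members called at 0, and raised the calls over all genes from 162 to 553 in WT induction, from 0 to 208 in ΔCdk8 induction and from 0 to 151 in the interaction. DESeq2 called 386, 822, 662, 36 and 33 genes in the uninduced, induced, WT induction, ΔCdk8 induction and interaction comparisons, where edgeR called 0, 0, 162, 0 and 0. With all 12 libraries in 1 fit the first 2 counts were 5 and 145. With no fold minimum and an adjusted p of 0.05 edgeR gave 4 genes in the induced and 639 in the WT induction comparison. With 1 library left out edgeR called 0 to 2, 0 to 54 and 0 to 124 genes in the uninduced, induced and WT induction comparisons. Of 684 fold changes of members under alternatives, 613 kept direction and call, 71 changed sign, 54 of them on leaving out 1 library, and 0 were newly called. The main values that changed sign were at most 0.23 in size on the log2 scale, and the cause was not tested. With DESeq2, Pcgf3 was −0.010 (main value 0.011) in the uninduced genotype, Pcgf3 was −0.0084 (main value 0.0088) in the WT induction. With all 12 libraries in 1 fit, Pcgf3 was −0.0060 (main value 0.011) in the uninduced genotype, Pcgf3 was −0.022 (main value 0.0088) in the WT induction. With no filter but 1 count, Pcgf3 was −0.016 (main value 0.0088) in the WT induction. With TMM over autosomal genes, Pcgf3 was −0.028 (main value 0.0088) in the WT induction, Rnf2 was −0.0040 (main value 0.015) in the ΔCdk8 induction. With GC-bin offsets, Pcgf6 was −0.034 (main value 0.019) in the induced genotype, Pcgf5 was 0.0099 (main value −0.068) in the WT induction, Kdm2b was −0.011 (main value 0.11) in the WT induction, Pcgf6 was 0.022 (main value −0.0055) in the ΔCdk8 induction. With the replicate block, Pcgf5 was 0.018 (main value −0.068) in the WT induction. With the block and GC-bin offsets, Pcgf3 was −0.0042 (main value 0.0088) in the WT induction, Pcgf5 was 0.10 (main value −0.068) in the WT induction, Kdm2b was −0.044 (main value 0.11) in the WT induction, Pcgf6 was 0.026 (main value −0.0055) in the ΔCdk8 induction, Ring1 was 0.010 (main value −0.045) in the interaction. Leaving out 1 library turned the sign in the uninduced genotype comparison of Ring1 (−0.30 to 0.10), Rnf2 (−0.0077 to 0.38), Pcgf3 (−0.13 to 0.092), Bmi1 (−0.043 to 0.43). Leaving out 1 library turned the sign in the induced genotype comparison of Ring1 (−0.44 to 0.10), Pcgf6 (−0.063 to 0.10). Leaving out 1 library turned the sign in the WT induction comparison of Rnf2 (−0.11 to 0.23), Pcgf3 (−0.14 to 0.11), Pcgf5 (−0.79 to 0.81), Kdm2b (−0.066 to 0.31). Leaving out 1 library turned the sign in the ΔCdk8 induction comparison of Rnf2 (−0.13 to 0.23), Pcgf5 (−0.70 to 0.14), Pcgf6 (−0.11 to 0.073), Bmi1 (−0.010 to 0.23), Kdm2b (−0.63 to 0.24). Leaving out 1 library turned the sign in the interaction comparison of Ring1 (−0.31 to 0.18), Rnf2 (−0.25 to 0.16), Pcgf1 (−0.42 to 0.058), Pcgf5 (−1.07 to 0.54), Kdm2b (−0.75 to 0.16). Leaving out 1 library also turned the sign of the Pcgf2 share difference in uninduced cells and the Pcgf3 share difference in induced cells, which ranged from −6.11 to 0.28 percentage points and from −1.32 to 0.61 percentage points.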

Other observations

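Marker lists that no comparison above used are given as summed TPM. The 8 primed epiblast markers summed to 641, 1074 and 1242 in uninduced WT 1, 2 and 3 and to 323 to 387 in the uninduced clones, and to 380 to 700 after induction of WT cells against 295 to 312 in the clones. Dnmt3b was the largest part of these sums, with 548, 815 and 997 TPM in uninduced WT 1, 2 and 3 and 277 to 310 TPM in the uninduced clones. Of 7 primed epiblast markers tested in uninduced cells, 6 were lower in ΔCdk8 cells at an unadjusted edgeR p under 0.05, beside 20.4% of all genes in either direction, with a median log2 fold change of −2.16. EdgeR called 0 of them, and DESeq2, which called 2.64% of all genes, called 5, namely Fgf5, Otx2, Pou3f1, Dnmt3b and Lef1. On induction edgeR called 0 in either genotype. With the replicate block it called 4 lower in WT and 3 lower in ΔCdk8 cells, beside 3.95% and 1.4% of all genes in either direction. The 9 primitive endoderm markers summed to 39.9 and 52.8 in uninduced and induced WT 1, to 18.8 to 25.6 in WT 2 and WT 3, and to 50.9 to 90.3 in ΔCdk8 libraries. The 6 markers of two-cell-like cells summed to 4.86 to 15.6 in clones 8 and 15 and to at most 1.59 in the other libraries. The 8 fibroblast or feeder markers summed to 17.8 and 16.1 in uninduced and induced WT 1, to 5.70 to 11.7 in WT 2 and WT 3, and to 24.0 to 32.9 in ΔCdk8 libraries. Thy1 alone had 31.2 TPM of the highest sum, that of induced clone 11, where 1 of the 8 markers reached 1 TPM, and Col3a1, Lum and Dcn were at most 0.345 TPM in every library. In clone 15, 5 of the 8 reached 1 TPM in both states, with 3.36 TPM of Col1a1, 3.67 of Col1a2, 2.71 of Postn and 7.11 of S100a4 in uninduced cells. DESeq2 called S100a4 higher in uninduced ΔCdk8 cells, and edgeR called 0 of these markers. The 7 neural markers summed to 58.7 to 171 in WT and 76.5 to 126 in ΔCdk8 libraries. The 10 naive markers summed to 1842 to 2504 and 1630 to 3168, sums of which Pou5f1 was the largest part. On induction of WT cells their median log2 fold change was 0.66, beside 0.03 for all genes, with 5 of 10 higher at an unadjusted edgeR p under 0.05, beside 21.2% of all genes. Tbx3 was called by edgeR there, at 2.33 (edgeR adjusted p = 0.00620), and had 3.98, 5.50 and 5.84 times its uninduced TPM in WT 1, 2 and 3. Esrrb had 2.09, 3.33 and 6.47 times its uninduced TPM in the same WT numbers (edgeR adjusted p = 0.0790). In uninduced ΔCdk8 against WT cells the median of the 10 was 0.71, where edgeR called 0 and DESeq2 called 2, beside 2.64% of all genes in DESeq2. The part of these differences in the values of the members was not tested.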
